A study of Mus musculus with 16 samples.

Results

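Efnb3, Parm1, Entpd2 and Adgb are 4 genes whose signal was lower on the arrays labelled Dex 1 and Dex 2 than on those labelled Vehicle 1 and Vehicle 2. They are 4 of 31758 features on the array, counted as genes here, of which 19096 have a gene symbol and the rest are transcripts without one. The cells were HL-1, a line of mouse atrial muscle cells that keeps beating in culture. Each gene was found by the RefSeq transcript of its probe and has 1 probe on the array (Efnb3 A_52_P495565, Parm1 A_51_P114693, Entpd2 A_51_P112932 and Adgb A_52_P527438). Those 4 arrays chose the genes, so the other 12 arrays carry the comparisons.

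The cells were treated for 6 h, and RNA was read on 16 single-colour Agilent arrays, 4 for each label. The labels are Dex+E2 (100 nM dexamethasone with 10 nM 17-beta-estradiol), Dex (100 nM dexamethasone), E2 (10 nM 17-beta-estradiol) and Vehicle (PBS, the solvent control). Dexamethasone is a synthetic glucocorticoid and 17-beta-estradiol is the main estrogen. The series describes 4 independent experiments, and all 16 arrays come from 1 cell line, so the spread is between samples of that line. Arrays are named here by label and number, as in Dex 3.

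Glucocorticoids bind the glucocorticoid receptor, a transcription factor that enters the nucleus on binding its hormone, where it raises some genes and lowers others. Per1, a circadian clock gene, is a well known direct target that rises within hours. Efnb3 encodes ephrin-B3, a membrane-bound ligand of Eph receptor kinases that signals between touching cells and is best known for guiding axons. Parm1 encodes a mucin-like membrane glycoprotein first described as androgen-regulated in rat prostate. Entpd2 encodes an enzyme on the cell surface that breaks down extracellular ATP. Adgb encodes androglobin, an unusually large globin with a calpain-like domain, known from testis and ciliated cells.

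Levels are log2 of the processed intensity minus the 75th percentile of the same array, so 0 is the 75th percentile and 1 unit is a 2-fold difference. Per1 separated the arrays without overlap, and 4 of them went against their label. Per1 lay at 1.86, 1.82, -1.11 and 1.95 on the arrays labelled Dex+E2 1 to 4. It lay at 1.91, 1.81, -1.15 and 1.99 on Dex 1 to 4. Array 3 was thus the low one in both labels that hold dexamethasone. Per1 lay at -0.86, -1.0, -1.29 and 1.95 on E2 1 to 4, and at -0.96, -0.75, -1.11 and 1.75 on Vehicle 1 to 4. Array 4 was the high one in both labels without dexamethasone. Whether these 4 samples carry the wrong labels was not tested, and if they do, every mean and test by label below mixes treatments. Labels were kept as given for every test, and the arrays are called by their labels throughout.

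Each of the 4 slides held 4 arrays and was scanned as 1 unit. Slide 1 held Dex 1 and 2 with Vehicle 1 and 2, slide 2 held E2 1 and 2 with Vehicle 3 and 4, slide 3 held Dex+E2 1 and 2 with Dex 3 and 4, and slide 4 held Dex+E2 3 and 4 with E2 3 and 4. The share of probes well above background ran from 58.6% to 65.6% per array, and 0 probes were saturated. Of 12 atrial cardiomyocyte markers, 11 were well above background on all 16 arrays. Markers of other cell types were also well above background on all 16 arrays: 5 of 5 for smooth muscle, 5 of 8 for fibroblasts, 3 of 7 for endothelium and 3 of 6 for leukocytes. The listed markers of these cell types well above background on 0 arrays were Ptprc and Adgre1 (leukocytes), Pecam1 and Cdh5 (endothelium) and Lum (fibroblasts). In bulk RNA, fewer cells of a type and less RNA per cell cannot be told apart.

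The 4 genes divided into a pair measured on every array and a pair near the detection limit. Efnb3 and Parm1 were well above background on 16 of 16 arrays, Entpd2 and Adgb on 10 each. On slide 1, 34.4% of 18379 genes were lower on both Dex arrays than on both Vehicle arrays, and all 4 genes are among them by their selection. Ordered by the Dex minus Vehicle difference from the most negative, Adgb stood at place 2, Entpd2 at 12, Efnb3 at 89 and Parm1 at 811. These places describe how the genes were chosen and carry no test.

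Efnb3 lay at 0.05, 0.03, 1.37 and 0.11 on Dex+E2 1 to 4 (processed intensities 415, 412, 1242 and 587). It lay at 0.34, 0.31, 1.27 and 0.14 on Dex 1 to 4. In both labels array 3 stood apart and high. On E2 1 to 4 Efnb3 lay at 1.86, 1.69, 1.31 and 0.14, and on Vehicle 1 to 4 at 1.71, 1.96, 1.34 and 0.10 (processed intensities 1488, 1702, 1312 and 528). In these labels array 4 stood apart and low, so all 4 labels overlap. The means were 0.39 ± 0.66 for Dex+E2, 0.51 ± 0.51 for Dex, 1.25 ± 0.77 for E2 and 1.28 ± 0.82 for Vehicle (SD, n = 4 each, slide 1 included). Neighbours in that order did not differ beyond their spread.

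Parm1 lay at 2.84, 2.95, 3.36 and 2.66 on Dex+E2 1 to 4, and at 2.78, 2.80, 3.25 and 2.50 on Dex 1 to 4. It lay at 3.33, 3.09, 3.24 and 2.80 on E2 1 to 4, and at 3.56, 3.62, 3.14 and 2.67 on Vehicle 1 to 4. Array 3 was again the highest of Dex+E2 and of Dex, and array 4 the lowest of E2 and of Vehicle, over a narrower range than for Efnb3. The means were 2.95 ± 0.29 for Dex+E2, 2.83 ± 0.31 for Dex, 3.12 ± 0.24 for E2 and 3.25 ± 0.44 for Vehicle (SD, n = 4 each). Neighbouring labels differed by less than their spread.

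Entpd2 behaved otherwise: it was high on Vehicle 1 and 2 and low on all other arrays. It lay at -5.89, -5.96, -5.45 and -6.02 on Dex+E2 1 to 4, and at -6.01, -6.23, -6.96 and -6.22 on Dex 1 to 4. It lay at -5.43, -5.54, -5.80 and -6.26 on E2 1 to 4, and at -3.57, -3.57, -5.85 and -5.72 on Vehicle 1 to 4. Vehicle 3, where Per1 was low as on Vehicle 1 and 2, thus had Entpd2 in the range of the E2 arrays. The probe was well above background on 2 of 4 Dex+E2, 1 of 4 Dex, 3 of 4 E2 and 4 of 4 Vehicle arrays. The label means were -5.83 ± 0.26 for Dex+E2, -6.36 ± 0.42 for Dex, -5.76 ± 0.37 for E2 and -4.68 ± 1.28 for Vehicle (SD, n = 4 each), an order whose neighbours overlap.

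The gap between the lower of Vehicle 1 and 2 and the highest of the other 14 arrays was 1.86 for Entpd2. It was over 0 in 1337 of 18379 genes (7.27%) and reached 1 in 1 gene, Entpd2 itself. Vehicle 1 and 2 took part in choosing the gene, so the gap is a description. The spot's median signal was 61 and 60 intensity units on Vehicle 1 and 2. The local background was 35 on Vehicle 1 and 24 on Vehicle 2, against 22 to 26 on the other arrays. The part of the local background in these values was not tested.

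Adgb was near the detection limit and varied widely within labels. It lay at -7.88, -5.18, -5.78 and -5.11 on Dex+E2 1 to 4, with array 1 not well above background. It lay at -8.39, -8.27, -7.64 and -6.18 on Dex 1 to 4, and was well above background on none of these 4 arrays. Its processed intensities on the Dex arrays lay between 1.33 and 7.70. Adgb lay at -4.09, -5.05, -4.79 and -5.28 on E2 1 to 4, and at -4.83, -4.69, -8.30 and -5.67 on Vehicle 1 to 4, with Vehicle 3 not well above background. The means were -5.99 ± 1.30 for Dex+E2, -7.62 ± 1.02 for Dex, -4.80 ± 0.52 for E2 and -5.87 ± 1.67 for Vehicle (SD, n = 4 each). From the highest mean (E2) to the lowest (Dex), each label's range overlapped that of the next. The Dex+E2 and Dex means lay further apart than either SD, but the Dex mean includes Dex 1 and 2, which chose the gene. On Dex 3 and 4 alone the mean was -6.91 ± 1.03 (SD), with a limma adjusted p of 0.877 against Dex+E2. Dex was not well above background on any array, so this distance has no firm size. Since androglobin is known from ciliated cells, markers of those cells were also read. Of 12 with a probe, 7 were well above background on all 16 arrays and Rsph4a on none, and their summed linear level was 1.82 on Vehicle 2 and 0.852 to 1.26 on the other 15 arrays.

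**Figure D1:**
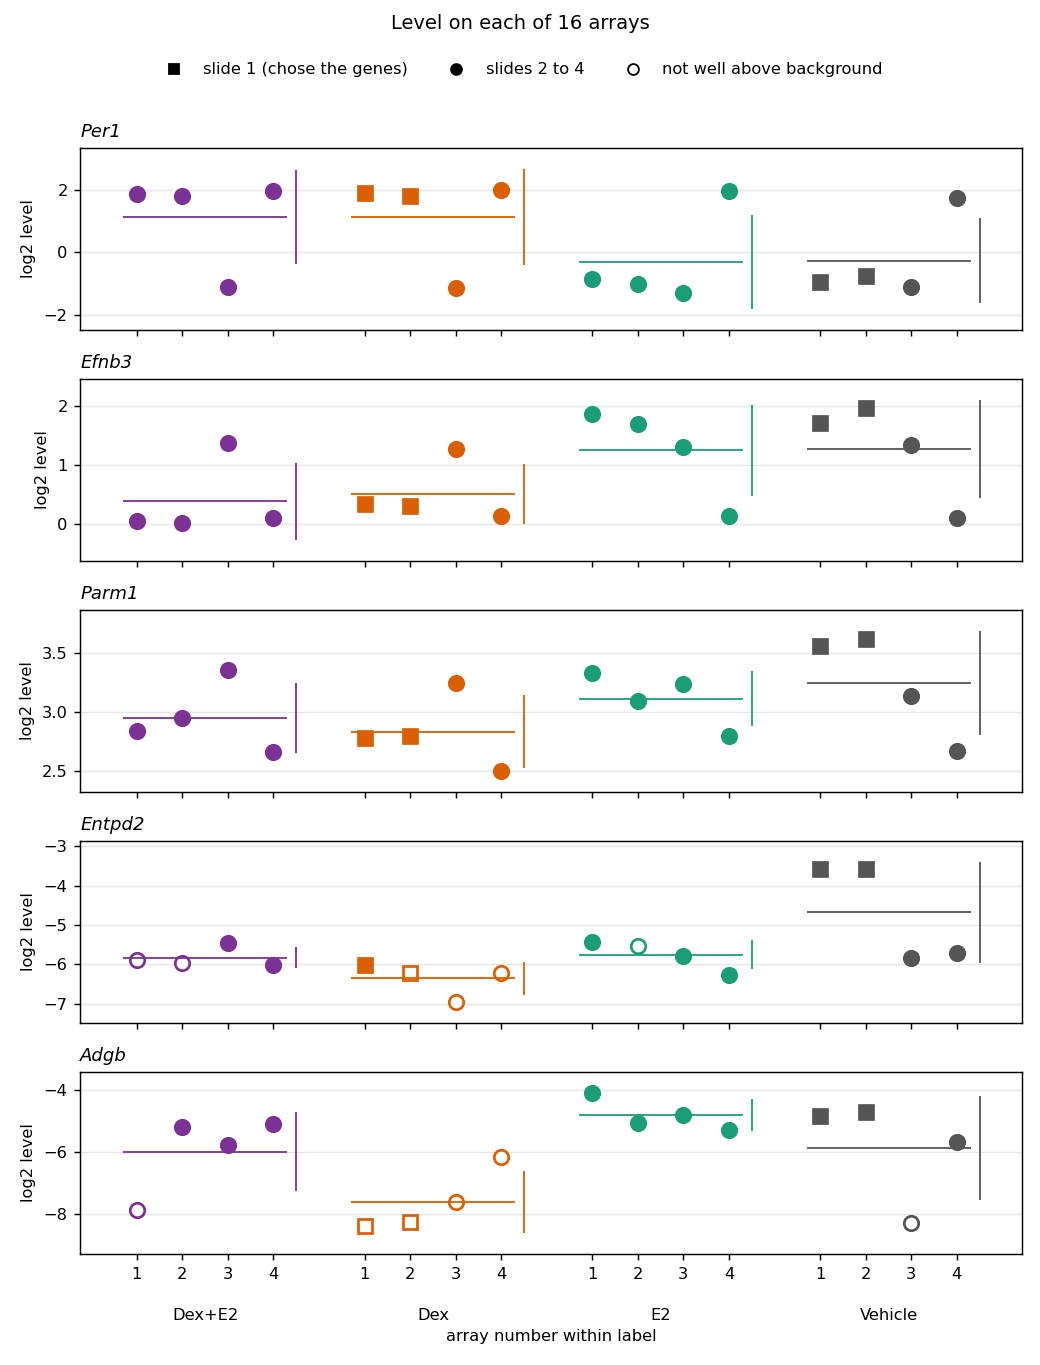
Level of Efnb3, Parm1, Entpd2 and Adgb (log2, 0 being the 75th percentile of an array) on every array, grouped by label. Points are arrays, squares are those of slide 1, open symbols are not well above background, horizontal lines are label means and vertical lines ±1 SD. Efnb3 and Parm1 have array 3 high in Dex+E2 and Dex and array 4 low in E2 and Vehicle, while Entpd2 is high on Vehicle 1 and 2.

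Set against Per1, Efnb3 and Parm1 followed it inversely on the 12 arrays that did not choose them, and Entpd2 and Adgb did not. Per1 was high on 6 of these arrays (Dex+E2 1, 2 and 4, Dex 4, E2 4 and Vehicle 4) and low on the other 6. Efnb3 ranged from 0.03 to 0.14 on the arrays with high Per1, against 1.27 to 1.86 on those with low Per1, with a gap of 1.13 between the ranges. Parm1 ranged from 2.50 to 2.95 on the arrays with high Per1, against 3.09 to 3.36 on those with low Per1, with a gap of 0.14. Among 18379 genes, 2.89% were lower without overlap on the arrays with high Per1, so 2 of 4 genes stand beside that share. The arrays were divided by a measured gene, so these are ranges and were not tested.

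The ranges of Entpd2 overlapped, at -6.26 to -5.72 on the arrays with high Per1 and -6.96 to -5.43 on those with low Per1. Those of Adgb overlapped too, at -7.88 to -5.11 with high Per1 and -8.30 to -4.09 with low Per1. Without the 4 arrays whose Per1 goes against the label, 4 arrays remained on each side (Dex+E2 1, 2 and 4 and Dex 4 against E2 1 to 3 and Vehicle 3). This setting was chosen after seeing the data. Efnb3, Parm1 and Entpd2 were then lower without overlap on the Dex+E2 and Dex arrays, beside 5.77% of genes, and Adgb overlapped. The Entpd2 probe was not well above background on Dex+E2 1 and 2, Dex 4 and E2 2, so its ranges, -6.22 to -5.89 on the Dex+E2 and Dex arrays against -5.85 to -5.43 on the E2 and Vehicle arrays, have no firm order.

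**Figure D2:**
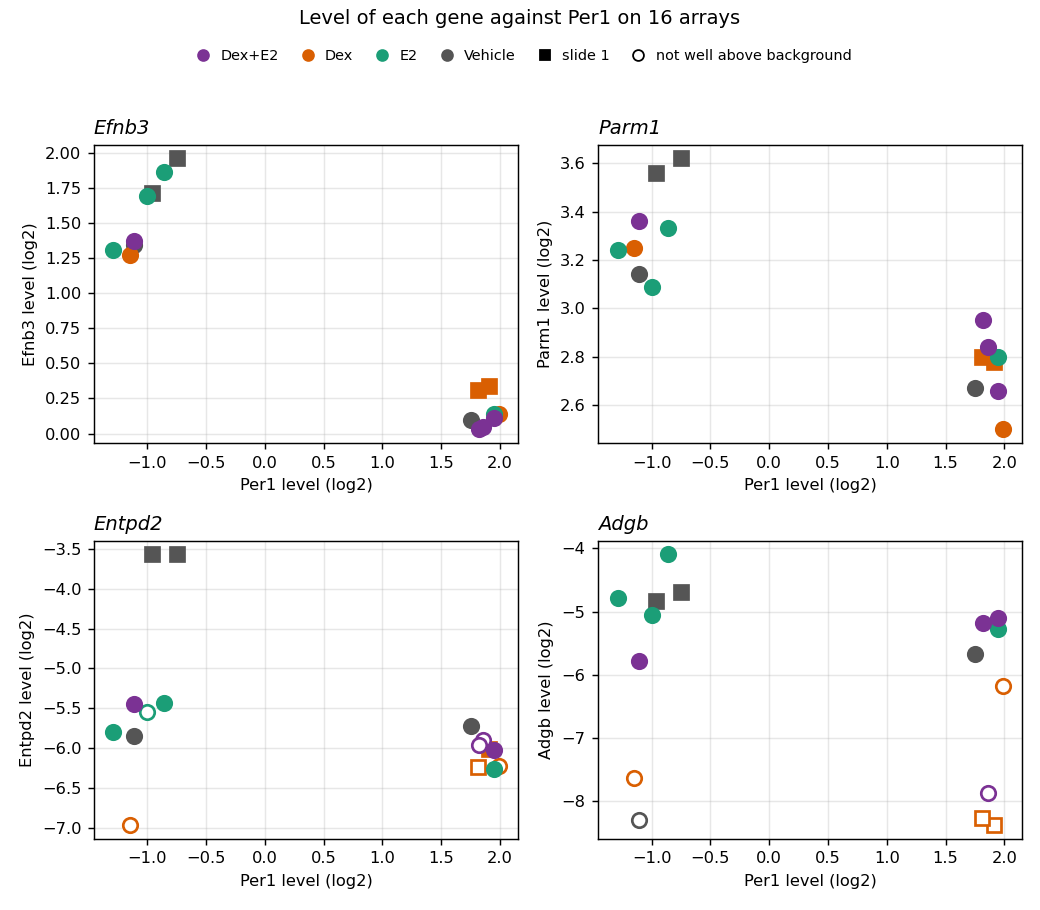
Level of each gene (vertical axis, log2) against the level of Per1 (horizontal axis, log2) on 16 arrays, coloured by label, with slide 1 as squares and open symbols for spots not well above background. Efnb3 and Parm1 fall into separate ranges on either side, Efnb3 between 0.03 and 0.34 where Per1 is high and between 1.27 and 1.96 where it is low. The squares chose the genes, and without them the Efnb3 ranges are 0.03 to 0.14 and 1.27 to 1.86. Entpd2 and Adgb have arrays of both kinds at the same levels.

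By array number, Efnb3 ranged from 1.27 to 1.37 on the 4 arrays numbered 3, whatever their label, and from 0.10 to 0.14 on the 4 arrays numbered 4. None of these 8 arrays took part in choosing the gene. For numbers 3 and 4, arrays of 1 number thus lay closer together across labels than arrays 3 and 4 of 1 label did.

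Array 4 minus array 3 of the same label was read next. Per1 was low on every array 3 and high on every array 4. This reading and the one by number above thus restate part of the separation by Per1 and give no separate support. A gene lower without overlap on the arrays with high Per1 is lower on array 4 in every label by construction. For Efnb3 the difference was -1.26 in Dex+E2, -1.13 in Dex, -1.16 in E2 and -1.24 in Vehicle. For Parm1 it was -0.70 in Dex+E2, -0.75 in Dex, -0.45 in E2 and -0.47 in Vehicle. Both genes were lower on array 4 in 4 of 4 labels, as were 15.4% of 18379 genes. By at least 0.5 in 4 of 4 labels, Efnb3 was lower, beside 0.555% of genes, and Parm1 was not. Ordered from the most negative by the highest of the 4 differences, Efnb3 stood at place 6 and Parm1 at place 130 of these genes. Per1 differed by 3.06 in Dex+E2, 3.15 in Dex, 3.24 in E2 and 2.86 in Vehicle, so arrays 3 and 4 differed in the same way in all 4 labels, with or without dexamethasone in the label.

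Entpd2 gave -0.57 in Dex+E2, -0.46 in E2 and 0.12 in Vehicle, with no common direction, and was not well above background on Dex 3 or Dex 4. Adgb gave 0.67 in Dex+E2 and -0.49 in E2, also with no common direction. It was not well above background on Dex 3, Dex 4 or Vehicle 3. As a second pair, array 2 minus array 1 for Efnb3 gave -0.02 in Dex+E2, -0.03 in Dex, -0.18 in E2 and 0.26 in Vehicle. These differences of Efnb3 were all smaller in size than any of its differences between arrays 4 and 3. That contrast is no support, since Dex 1 and 2 and Vehicle 1 and 2 chose the gene. In every label, arrays 1 and 2 also share a Per1 level and arrays 3 and 4 do not.

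**Figure D3:**
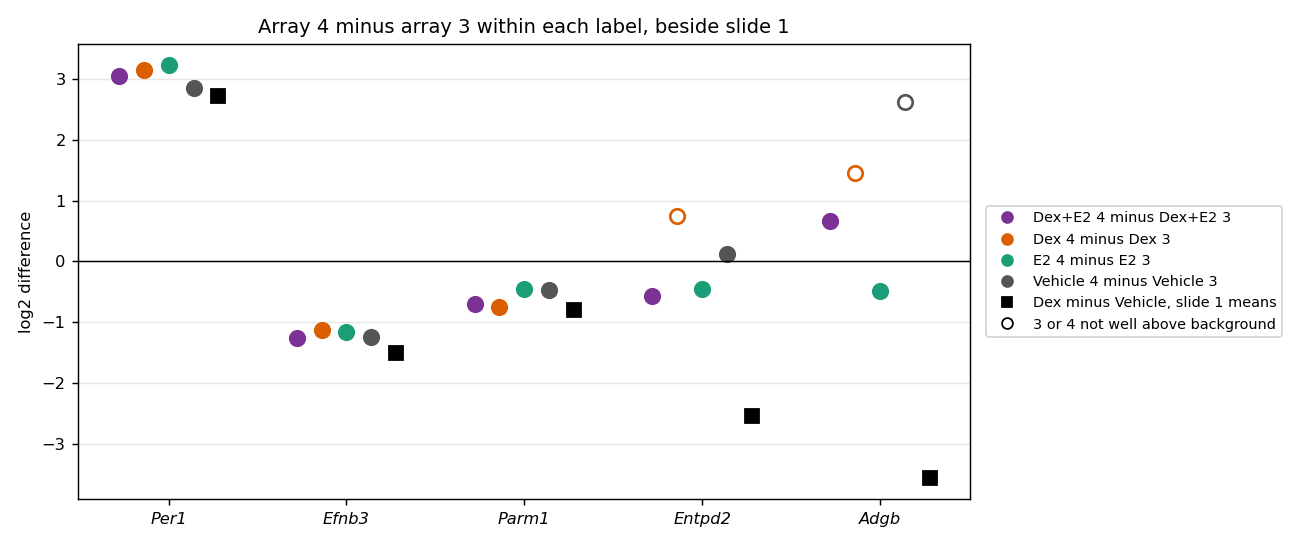
Array 4 minus array 3 (log2) within each label for Per1 and the 4 genes (circles, open where array 3 or 4 was not well above background), with Dex minus Vehicle of the slide 1 means as black squares, which chose the genes. Efnb3 lies between -1.26 and -1.13 and Parm1 between -0.75 and -0.45 in every label, while Entpd2 and Adgb have values on both sides of 0.

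The labelled treatments were tested on the 12 arrays with limma, over 18630 genes well above background on all of a label's arrays, and all 4 genes passed that filter. Efnb3 and Parm1 passed it in all 4 labels, Entpd2 through Vehicle alone and Adgb through E2 alone, so the differences of the last pair that involve those labels were favoured by the filter. For dexamethasone alone, with 2 arrays on each side, Efnb3 averaged 0.70 ± 0.80 on Dex 3 and 4 and 0.72 ± 0.88 on Vehicle 3 and 4 (SD). The difference was -0.02 ± 0.64 (SE, 95% interval -1.43 to 1.39, limma adjusted p = 1.0). Parm1 averaged 2.87 ± 0.53 on Dex 3 and 4 and 2.91 ± 0.33 on Vehicle 3 and 4 (SD). Its difference was -0.03 ± 0.28 (SE, interval -0.65 to 0.58, limma adjusted p = 1.0). Each side holds 1 array whose Per1 goes against its label.

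Entpd2 averaged -6.59 ± 0.52 on Dex 3 and 4 and -5.78 ± 0.09 on Vehicle 3 and 4 (SD). The probe was well above background on 0 of 2 Dex arrays, so only a bound could be computed. That bound put Dex 1.03-fold lower, too close to 1 to state a decrease (limma adjusted p = 0.877). Entpd2 had entered the tests through Vehicle 3 and 4 alone, the label where it was well above background on every array. With normexp its fitted difference was -0.01, and with slide as a block -0.08, against -0.81 in the main setting. Adgb was well above background on 0 of 2 Dex arrays and 1 of 2 Vehicle arrays, so no fold is given for it. Of 18630 genes, 6 were called in this comparison, 0.0322%, 6 higher and 0 lower, and 0 of the 4 genes were among them. At an unadjusted p under 0.05, 1054 genes passed (5.66%). Without Dex 3 the count of genes called was 0. Without Dex 4, 33 genes were higher and 134 lower, without Vehicle 3, 5 were higher and 18 lower, and without Vehicle 4, 62 were higher and 33 lower. With slide as a block the difference of Efnb3 turned to 1.74 and that of Parm1 to 0.27. No slide in that fit holds both Dex and Vehicle, so it links them only through the Dex+E2 and E2 arrays.

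With E2 present on both sides, Dex+E2 against E2 had 4 arrays on each side. Efnb3 averaged 0.39 ± 0.66 on Dex+E2 and 1.25 ± 0.77 on E2 (SD, n = 4 each), a difference of -0.86 ± 0.45 (SE, interval -1.85 to 0.14, limma adjusted p = 0.937). Parm1 differed by -0.16 (interval -0.60 to 0.27, limma adjusted p = 0.953). Entpd2 differed by -0.07 (interval -0.64 to 0.50) and Adgb by -1.19 (interval -2.73 to 0.36), with limma adjusted p of 0.999 and 0.937. The Adgb difference was -0.05 with normexp, whose offset compresses it by construction, and -0.56 without Dex+E2 1. None of the 4 genes passed, and 0 of 18630 genes were called (0.0%), with 802 (4.3%) at an unadjusted p under 0.05 in limma. Within slide 4, which holds Dex+E2 3 and 4 and E2 3 and 4, the Efnb3 difference was 0.02 and that of Entpd2 0.30. Each side there holds 1 array whose Per1 goes against its label (Dex+E2 3 and E2 4), so each mean joins high and low Per1.

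For E2 against Vehicle 3 and 4, Efnb3 differed by 0.52 (interval -0.69 to 1.74), Parm1 by 0.21 (interval -0.32 to 0.74) and Entpd2 by 0.02 (interval -0.67 to 0.72). Adgb differed by 2.18 (interval 0.29 to 4.07), from -4.80 ± 0.52 on 4 E2 arrays and -6.99 ± 1.86 on 2 Vehicle arrays (SD), of which 1 was well above background. Adgb had entered the tests through E2, its highest label. The difference was 0.11 with normexp, whose offset compresses it by construction, 0.87 without Vehicle 3 and 3.5 without Vehicle 4. Its limma adjusted p was 0.985, and 0 genes were called (0.0%), with 637 (3.42%) at an unadjusted p under 0.05 in limma. For Dex+E2 against Dex 3 and 4, Efnb3 differed by -0.31 (interval -1.53 to 0.91) and Parm1 by 0.08 (interval -0.45 to 0.61). Entpd2 averaged -5.83 ± 0.26 on 4 Dex+E2 arrays and -6.59 ± 0.52 on 2 Dex arrays (SD). It was well above background on 0 of these Dex arrays, and its limma adjusted p was 0.678. Here 6 genes were called, all lower (0.0322%), and 1290 (6.92%) passed at an unadjusted p under 0.05.

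For Dex+E2 against Vehicle 3 and 4, Efnb3 differed by -0.33 (limma adjusted p = 0.947), Parm1 by 0.04 (0.987), Entpd2 by -0.04 (0.989) and Adgb by 1.0 (0.924). The count of genes called was 0 (0.0%), with 904 (4.85%) at an unadjusted p under 0.05 in limma. The interaction, which asks whether the dexamethasone difference changes with E2, was -0.84 for Efnb3 (interval -2.56 to 0.89) and -0.13 for Parm1 (interval -0.88 to 0.62). No size is given for Entpd2 and Adgb, since Dex 3 and 4 were not well above background for either. All 4 genes had a limma adjusted p of 1.0, beside 0 genes called (0.0%) and 606 (3.25%) at an unadjusted p under 0.05.

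**Figure D4:**
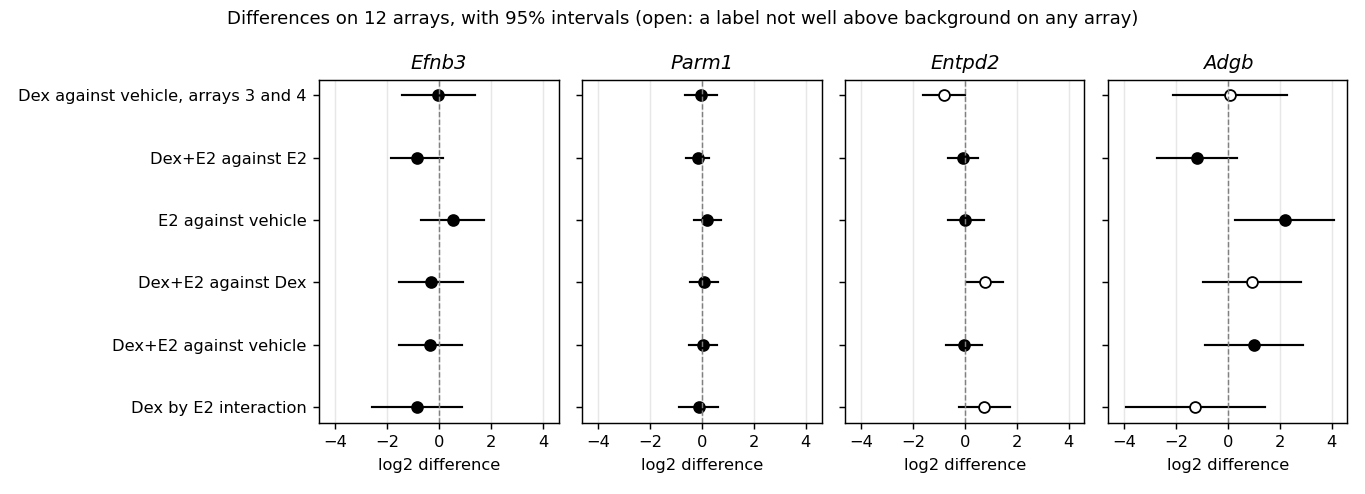
Difference (log2, horizontal axis) of each gene in 6 comparisons over 12 arrays, with points for limma estimates and lines for 95% intervals. Open points have a label that was not well above background on any array, and are no measure of size. The Efnb3 and Parm1 intervals all include 0, and none of the 4 genes passed after adjustment over 18630 genes.

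The other ephrins and Eph receptors, the ligands and receptors that Efnb3 belongs with, were read as a family. Of 22 listed genes 12 were tested, 11 of them besides Efnb3, and 0 of the 11 were called in any comparison. On the arrays with high Per1, 3 of the 11 were lower without overlap (Efna1, Efnb1 and Epha4) and 1 was higher (Epha3), beside 2.89% and 2.73% of all genes. Efna1, a GPI-anchored ligand, ranged from -1.20 to -1.0 with high Per1, against -0.65 to -0.34 with low Per1. Efnb1, a transmembrane ligand like Efnb3, ranged from 1.22 to 1.64 with high Per1, against 1.83 to 2.00 with low Per1. The receptor Epha4 ranged from -1.53 to -1.02 with high Per1, against -0.99 to -0.69 with low Per1. The receptor Epha3 ran the other way, from -2.74 to -2.24 with high Per1, against -4.06 to -2.97 with low Per1. Efnb1 and Epha4 were named after their values were seen. Between Dex+E2 and E2 the median difference of the 11 genes was -0.01, beside -0.004 for all genes, with Efna1 at -0.30 and Efna4 at -0.22 lowest and Ephb3 at 0.20 and Epha3 at 0.33 highest.

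**Figure D5:**
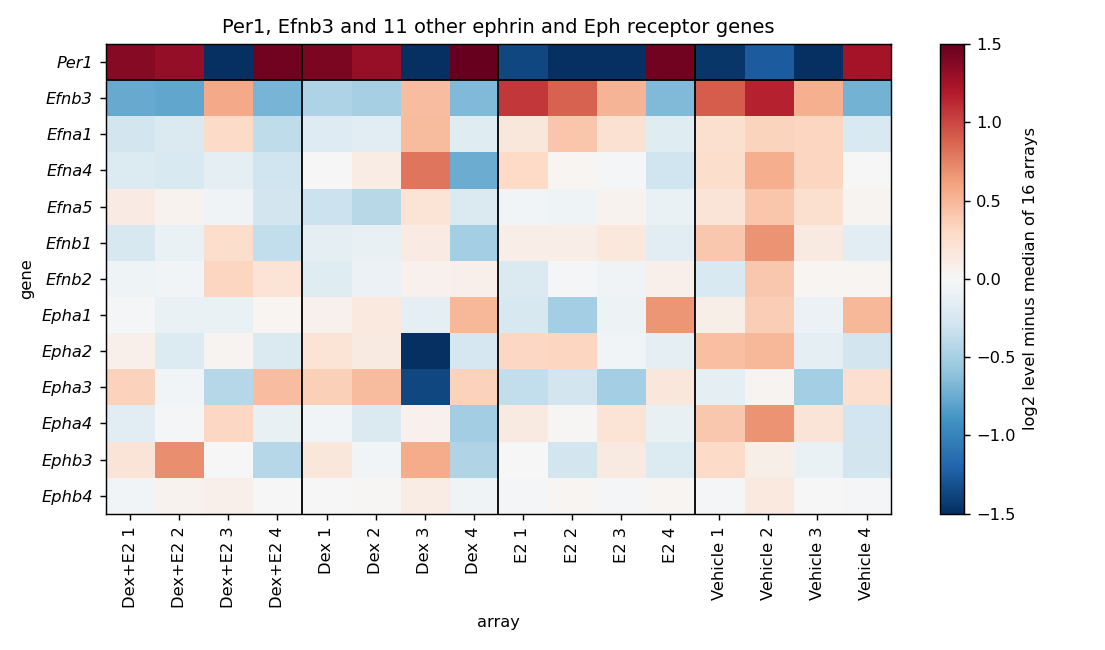
Level of Per1, Efnb3 and 11 other ephrin and Eph receptor genes on 16 arrays (columns by label), as log2 difference from the gene's median over the 16 arrays, with colours limited at -1.5 and 1.5. The Efnb3 row runs opposite to the Per1 row on each array, while most other rows vary less.

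For Entpd2, the other 22 tested genes of ectonucleotidases and purinergic receptors were read, and 0 were called. None was lower without overlap on the arrays with high Per1, and 2 were higher. Nt5e, which makes adenosine from AMP at the cell surface, ranged from 1.30 to 1.71 with high Per1, against 0.09 to 0.68 with low Per1. P2rx5, an ATP-gated channel named after its values were seen, ranged from -3.17 to -2.62 with high Per1, against -4.16 to -3.71 with low Per1. Between Dex+E2 and E2, the adenosine receptors Adora2b (-0.55) and Adora2a (-0.24) had the lowest differences, and Nt5e (0.75) was the highest of those measured, beside a list median of -0.03. Adora2b was well above background on 2 of 4 Dex+E2 and 3 of 4 E2 arrays. Entpd3, a related ATP-degrading enzyme, was above Nt5e in that order but well above background on 0 of the 8 Dex+E2 and E2 arrays, so it has no measured difference there. It was well above background on 4 arrays, at -5.27 on Dex 3 and at -4.22, -4.31 and -4.36 on Vehicle 1, 3 and 4.

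Of 10 other tested mucin-like membrane glycoproteins, set beside Parm1, 0 were lower and 1 (Cd164l2) was higher without overlap on the arrays with high Per1. Their differences between Dex+E2 and E2 had a median of 0.0 and ran between -1.03 for Selplg, a ligand of selectins, and 0.26 for Cd164l2, with Podxl2 at -0.19 and Spn at 0.25. Selplg was well above background on 3 of 4 Dex+E2 and 4 of 4 E2 arrays. Of 6 other tested globins, set beside Adgb, 0 were lower and 0 higher without overlap. Their median was -0.16, with Hbb-bt at -0.26 and Hbq1b at -0.23 lowest and the muscle oxygen store Mb at -0.06 and Hba-a1 at 0.03 highest. No gene of these lists passed limma's adjusted p in any comparison.

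The genes most like Efnb3 over the 12 arrays, by Pearson correlation among 12130 genes, were Hes1 (0.985), Zcchc24 (0.978) and Lamb1 (0.975). Those most like Parm1 were Fgf18 (0.983), Inppl1 (0.98) and Kif26b (0.974). Hes1 encodes a repressor best known as a Notch target, Lamb1 a laminin chain and Fgf18 a growth factor. Efnb3 and Parm1 correlated at 0.864 with each other, which put Parm1 at place 260 for Efnb3 and Efnb3 at place 243 for Parm1. The 12 points share labels, slides and the separation by Per1, so these values describe likeness across these arrays. Entpd2 and Adgb were well above background on 7 and 8 of the 12 arrays and were not compared.

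Promoters, taken as the 250 bases before the start from RefSeq on build GRCm38.p6, were found for Parm1, Entpd2 and Adgb, and Efnb3 is named only. They were searched on both strands for the palindromic glucocorticoid response element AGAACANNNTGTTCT, its half-site TGTTCT, which overlaps it, and the E-box CACGTG bound by clock proteins. These occurred in 0.00913%, 16.1% and 6.02% of 32851 promoters of that length. No match was found in Parm1, Entpd2 or Adgb, which says only that these letters are not in this window. Parm1, which followed Per1 inversely, and Per1 itself are printed for comparison, 5′ to 3′ on the plus strand, at chr5:91517450-91517699 for Parm1 and chr11:69098699-69098948 for the first of 2 Per1 starts. Capitals mark the 1 E-box of Per1, which begins 166 bases before the start.
Parm1: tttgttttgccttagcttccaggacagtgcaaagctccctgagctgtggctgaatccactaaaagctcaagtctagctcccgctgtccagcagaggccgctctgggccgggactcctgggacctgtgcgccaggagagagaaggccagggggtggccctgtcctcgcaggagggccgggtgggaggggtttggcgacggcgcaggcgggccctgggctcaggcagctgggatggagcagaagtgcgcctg
Per1: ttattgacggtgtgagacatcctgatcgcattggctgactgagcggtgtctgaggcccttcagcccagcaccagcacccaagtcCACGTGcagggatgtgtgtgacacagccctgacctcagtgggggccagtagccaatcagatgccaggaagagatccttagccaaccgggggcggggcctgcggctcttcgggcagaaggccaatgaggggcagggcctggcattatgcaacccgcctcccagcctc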

How the data were processed

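RNA of HL-1 cells was hybridised to 16 single-colour Agilent arrays. Processed signals, deposited as intensity, come from Agilent Feature Extraction 12, per the submitters' processing notes, with a single-colour protocol, per the file headers. The deposited series table holds log2 values, whose scale was read from their match to each array (lowest correlation 0.999). Its columns share one set of sorted values, and the method behind them is not stated by the sources used.

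Spots of a probe were averaged, and the probe with the highest mean signal stands for a gene. Levels are log2 of the intensity minus the 75th percentile of the array (402.1 to 556.6). Precision is limited by how many arrays there are. Genes well above background on all of a label's arrays were tested on 12 arrays with limma 3.58.1 in R 4.3.3 (lmFit, eBayes with trend, Benjamini-Hochberg, threshold 0.05) in 1 fit of the 4 labels. A bound was computed where a probe was well above background on no array of a label and on some of the other. It is the brighter label's mean over the dim value, or over the array's detection limit where that is higher. That limit was taken as the lowest level of any probe well above background on the array. Bounds under 1 in the tests give no fold and are not printed. The fit was tested on simulated data with independent noise and shifts in Dex+E2 only. Those data held no structure by slide, array number or Per1 level, so they do not bear on such structure here.

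Members and lists were chosen with earlier results of these data known. Of each list, the text names the 2 lowest and 2 highest Dex+E2 minus E2 differences. Slide, replicate number, normexp (offset 50, on the median signal because the files hold that), the series table, no filter, all 16 arrays and leaving out each array were alternatives.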

Additional observations from a re-analysis of the deposited data

Results flagged for a closer look

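In 5 of 20 groups of 4 arrays (the 4 genes and Per1 in each label), 1 array stood far from the other 3, where the critical value of Dixon's test would flag about 1 group in 20 by chance. Efnb3 on Dex+E2 3 was 1.37, against 0.03 to 0.11 on the other Dex+E2 arrays. Per1 on Dex+E2 3 was -1.11, against 1.82 to 1.95 on the others, and on Dex 3 it was -1.15, against 1.81 to 1.99. Per1 on E2 4 was 1.95, against -1.29 to -0.86 on the others, and on Vehicle 4 it was 1.75, against -1.11 to -0.75. These 4 arrays are those whose Per1 goes against the label, and the cause was not tested.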

How the results depend on the processing

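Of 180 differences of the 4 genes under other settings, 157 kept their direction and 23 turned, and none passed the threshold (smallest adjusted p 0.411). Without 1 array, 263 of 288 kept their direction and 25 turned (smallest adjusted p 0.397). Efnb3 and Parm1, and neither Entpd2 nor Adgb, stood apart beside Per1 under the main scaling, normexp and the series table alike.

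Counts of genes called moved more. Dex against Vehicle 3 and 4 gave 6 genes in the main setting, 0 with all 16 arrays, 16 with no filter, 3 with normexp, 15 with no trend, and 0 with the replicate block and with the slide block. Dex+E2 against Dex gave 0 with all 16 arrays, 16 with no filter, and 0 with the replicate block, with the slide block and within slide 3. E2 against Vehicle gave 1 with the series table, 1 with no filter and 2 with no trend. Dex+E2 against Vehicle gave 1 with the series table, 1 with no filter and 3 with no trend. The interaction gave 4 with the series table, 5 with no filter, 1 with the slide block and 7 with no trend. Without 1 array the counts ran over 0 to 167 for Dex against Vehicle, 5 to 183 for Dex+E2 against Dex, 0 to 1 for Dex+E2 against E2, 0 to 90 for Dex+E2 against Vehicle, 0 to 84 for E2 against Vehicle and 0 to 113 for the interaction. The highest counts came without Dex 4 (167, 183 and 113) and without Vehicle 4 (84 and 90), and the 1 gene without E2 2; without Vehicle 3 they were 12 for E2 and 12 for Dex+E2 against Vehicle and 5 for the interaction, for which it was 66 without Vehicle 4. The cause was not tested. The labels do not say that a replicate number marks a shared experiment, and 11 of 24 same-number correlations of deviations were over 0.1 (range -0.16 to 0.38), so the numbers were not used as pairs. In 28 of 48 pairings of an array with another label the best correlation was with its own number, where unrelated numbers would give 12. Some arrays of the same number also share a slide, and those numbered 3 or 4 share a Per1 level. The cause of these matches was not tested.

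Turned differences were as follows. For Dex against Vehicle, the slide block gave 1.74 for Efnb3 and 0.27 for Parm1, and all 16 arrays gave -1.74 for Adgb. For Dex+E2 against E2, the slide block and slide 4 alone gave 0.02 for Efnb3 and 0.30 for Entpd2, and the series table gave 0.03 for Entpd2. For E2 against Vehicle, all 16 arrays gave -0.03 for Efnb3, -0.13 for Parm1 and -1.08 for Entpd2, and the replicate block -0.06 for Entpd2. For Dex+E2 against Dex, normexp gave -0.01 for Parm1. For Dex+E2 against Vehicle, the slide block gave 1.07 for Efnb3 and 0.59 for Entpd2, normexp -0.10 for Parm1 and 0.01 for Entpd2, the series table -0.03 for Parm1 and 0.14 for Entpd2, and all 16 arrays -0.30 for Parm1 and -0.11 for Adgb. For the interaction, all 16 arrays gave 0.25 for Parm1 and 0.56 for Adgb. Values with all 16 arrays include the 4 that chose the genes. The slide block links Dex or Dex+E2 to Vehicle only through other labels, since no slide in that fit holds both.

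Some differences kept their direction but not their size. For Dex against Vehicle, Entpd2 (-0.81) was -0.01 with normexp, -0.08 with the slide block, -0.53 with the series table, -1.68 with all 16 arrays and -1.18 to -0.44 without 1 array. For E2 against Vehicle, Adgb (2.18) was 0.11 with normexp, 1.07 with all 16 arrays and 0.87 to 3.5 without 1 array. For Dex+E2 against E2, Adgb (-1.19) was -0.05 with normexp, -0.41 with the slide block and -1.48 to -0.56 without 1 array. The normexp offset of 50 exceeds the processed intensities of Entpd2 and Adgb, so it compresses their differences by construction. Fitted values of both genes include spots not well above background, and those with Dex on one side are no measure of size.

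Without 1 array, Efnb3 ran from -0.64 to 0.60 for Dex against Vehicle, -0.88 to 0.25 for Dex+E2 against Dex, -0.95 to 0.29 for Dex+E2 against Vehicle and -0.09 to 1.14 for E2 against Vehicle. Parm1 ran from -0.41 to 0.34, -0.30 to 0.45, -0.19 to 0.28 and -0.03 to 0.44 in the same order, and -0.51 to 0.25 for the interaction. Entpd2 ran from -0.24 to 0.04 for Dex+E2 against E2, -0.17 to 0.02 for Dex+E2 against Vehicle and -0.08 to 0.19 for E2 against Vehicle. Adgb ran from -1.23 to 1.39 for Dex against Vehicle, -0.31 to 2.31 for Dex+E2 against Vehicle and -2.58 to 0.05 for the interaction. Where an arm was left with 1 array, it was assumed to vary like the other labels. Low signal limits Entpd2 and Adgb, and the number of arrays limits all tests.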
